A study of Mus musculus with 9 samples.

Results

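The genes described here are Id1, Id2, Id3 and Id4, which encode the inhibitor of DNA binding proteins, Smad6 and Smad7, which encode the inhibitory Smads, and Bambi, which encodes a decoy receptor. They were taken by symbol from the platform annotation, as 7 genes known to respond to bone morphogenetic protein (BMP) signals, among 19937 genes with a named probe set, and earlier results of these data were known when they were chosen. Each of the 7 had 1 probe set with a single gene symbol, and all 7 passed a filter on dim genes that left 11962 genes for testing. RNA came from quiescent fibroblasts of mouse embryos (MEFs), connective tissue cells kept in culture, with 3 Affymetrix arrays for each of 3 genotypes. The genotypes differ in Cdkn1b, which encodes p27, an inhibitor of the cell cycle. They are p27CK (CK), p27KO (KO) and wild type (WT). In published work p27CK is a p27 mutant unable to bind cyclins or their kinases; the labels give only its name, and call the third genotype p27KO while the extraction protocol speaks of delta51 mice. Cells of every genotype were cultured in 10% serum and deprived of serum for 72 h before RNA extraction, so no proliferating culture is compared here. Nothing in the labels tells if the replicate arrays are different embryos, different cultures or one culture measured again. The p-values thus cover the spread among these arrays, possibly technical, and effects of genotype and of culture cannot be told apart.

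BMPs are secreted ligands that bind paired type I and type II receptor kinases. The receptors phosphorylate Smad1, Smad5 and Smad9, which join Smad4 and switch on target genes in the nucleus, with the Id genes among the most direct. Id proteins contain a helix-loop-helix but no DNA-binding region, and they hold E proteins and other helix-loop-helix factors away from DNA, which in many cell types keeps differentiation in check. Smad6, Smad7 and Bambi are also induced by the pathway and act back on it: Smad6 mainly on the BMP branch, Smad7 on the BMP and TGF-beta branches, and Bambi as a receptor-like protein that lacks the kinase domain.

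The targeted gene was read before the 7 genes. Cdkn1b (probe set 10542310, chromosome 6) read 10.99, 11.14 and 11.16 in the CK arrays, 7.44, 7.25 and 7.45 in the KO arrays and 11.42, 11.50 and 11.47 in the WT arrays, as log2 values. The KO arrays thus stood far below the rest. Array medians over all probe sets lay between 7.29 and 7.40, and correlations between arrays were 0.995 to 0.998 within a genotype and 0.964 to 0.975 between genotypes. Differences were widespread in this study: at an adjusted p under 0.05 (limma, Benjamini-Hochberg over 11962 genes), 62.9% of the genes tested were called between CK and WT, 51.2% between KO and WT and 62.2% between CK and KO. Counts below, of the 7 genes and of the other gene lists, are to be read against these shares.

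In CK cells all 4 Id genes and Smad6 were more than 2-fold lower than in WT and KO cells, and Smad7 was lower by less. In KO cells the Id genes and Smad7 were lower than in WT by smaller amounts, while Smad6 and Bambi were higher. Of the 7 genes, 6 fell and 0 rose in CK versus WT, where 32.1% of tested genes fell and 30.7% rose. In KO versus WT 5 fell and 2 rose, where 24.6% of tested genes fell and 26.6% rose. In CK versus KO 7 fell and 0 rose, where 32.7% of tested genes fell and 29.5% rose. The median difference of the 7 genes was -1.96 in CK versus WT, -0.41 in KO versus WT and -1.42 in CK versus KO on the log2 scale, beside -0.01, 0.01 and -0.02 over all tested genes. The comparisons share arrays, so they are not independent of one another.

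**Figure D1:**
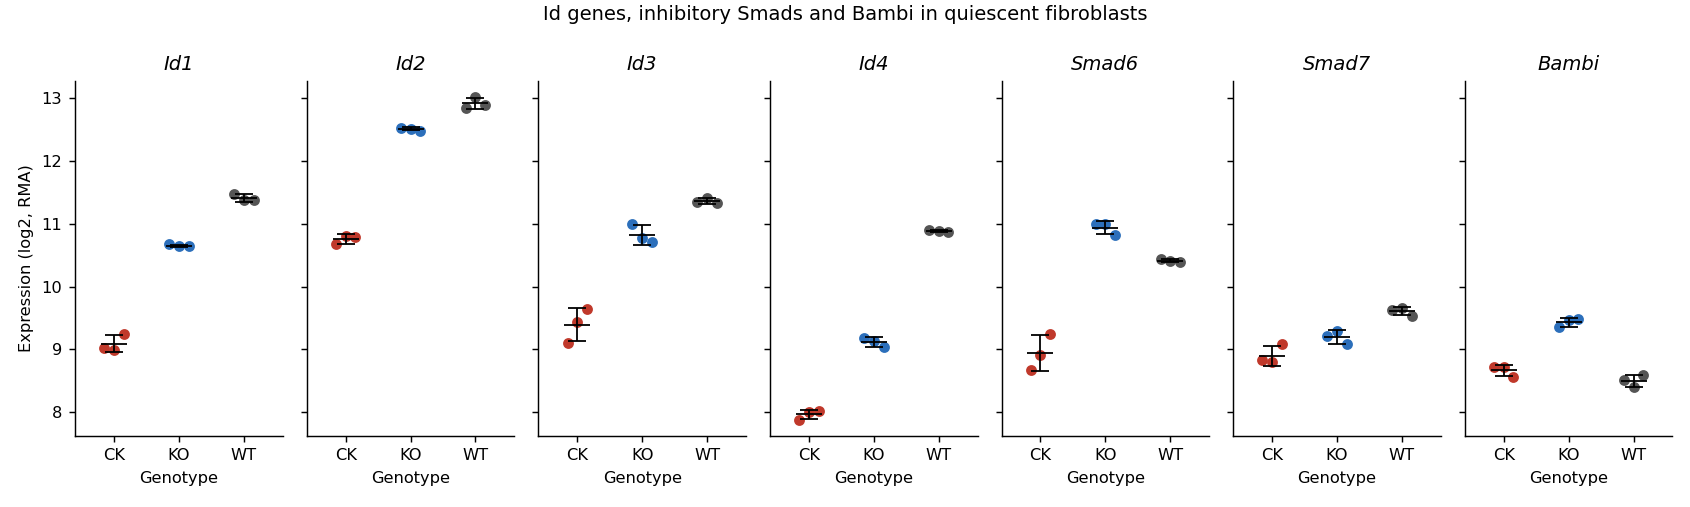
Expression of the 7 genes on each of the 9 arrays (vertical axis, log2 RMA value) by genotype; points are arrays, and black marks are the mean and the SD of 3 arrays. The CK points lie below all KO and WT points for Id1, Id2, Id3, Id4 and Smad6, while Smad6 and Bambi are highest in KO; heights are comparable within a gene and not between genes.

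Id1, which with Id3 is the most widely used readout of BMP signalling, lies on chromosome 2 (probe set 10477169). It read 9.03, 9.00 and 9.24 in CK, 10.67, 10.64 and 10.64 in KO and 11.47, 11.37 and 11.37 in WT. The genotypes did not overlap and stood in the order CK, KO, WT from low to high. CK was 4.98-fold below WT (difference on the log2 scale -2.32, SE 0.07, adjusted p = 1.03e-09 by limma) and 2.94-fold below KO (log2 difference -1.56, adjusted p = 1.43e-08). KO was 1.69-fold below WT (log2 difference -0.76, adjusted p = 5.95e-06).

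Id2, a family member with broad roles in lymphoid, neural and mesenchymal cells, lies on chromosome 12 (probe set 10399691). It read 10.67, 10.81 and 10.79 in CK, 12.53, 12.51 and 12.48 in KO and 12.83, 13.01 and 12.88 in WT. Here too the arrays of the 3 genotypes did not overlap, and KO stood closer to WT than to CK. The log2 difference was -2.15 in CK versus WT (SE 0.06, limma adjusted p = 8.21e-10), -0.40 in KO versus WT (adjusted p = 0.000289) and -1.75 in CK versus KO (adjusted p = 2.53e-09).

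Id3, which overlaps with Id1 in function during vascular and neural development, lies on chromosome 4 (probe set 10509163). It read 9.11, 9.44 and 9.64 in CK, 11.00, 10.77 and 10.70 in KO and 11.35, 11.41 and 11.32 in WT. The order was the same, with no overlap, but the CK arrays spread over 0.533 and the KO arrays over 0.295, against 0.088 in WT. The log2 difference was -1.96 in CK versus WT (SE 0.12, limma adjusted p = 2.39e-07) and -0.54 in KO versus WT (95% interval -0.81 to -0.27, adjusted p = 0.00383). CK was 2.68-fold below KO (adjusted p = 2.5e-06).

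Id4, known from neural, mammary and bone-forming cells, lies on chromosome 13 (probe set 10404975). It read 7.88, 8.00 and 8.03 in CK, 9.18, 9.14 and 9.04 in KO and 10.91, 10.88 and 10.87 in WT. The genotypes were again separate, and KO lay between the others. CK was 7.54-fold below WT (difference on the log2 scale -2.91, SE 0.06, adjusted p = 8.87e-11 by limma), the largest measured fold among the 7 genes in any of the 3 comparisons. KO was 3.40-fold below WT (log2 difference -1.76, 95% interval -1.90 to -1.63, adjusted p = 2.45e-09), and CK was 2.22-fold below KO (log2 difference -1.15, adjusted p = 4.43e-08). Id4 was the one gene of the 7 that fell at least 2-fold in KO versus WT, where 5.41% of tested genes did. At the same size 5 of the 7 fell in CK versus WT and 5 in CK versus KO, beside 5.8% and 5.38% of tested genes.

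The stretches before the start of transcription are shown for Id2, Id3, Id4 and Smad6. They are the 4 of the 7 genes for which a RefSeq window of build GRCm38.p6 was used. All 4 fell by at least 2-fold in CK, as did Id1, for which no window was available. No window was used for Smad7 and Bambi. Each line gives 250 bases, 5′ to 3′ on the strand of the gene, ending just before the annotated start, for Id2 at chr12:25096093-25096342 on the minus strand, Id3 at chr4:136143572-136143821 on the plus strand, Id4 at chr13:48260866-48261115 on the plus strand and Smad6 at chr9:64022060-64022309 on the minus strand. Capitals mark GGCGCC, the GC-rich sequence that BMP-activated Smads are known to bind, and CAGAC or its complement GTCTG, the general Smad-binding sequence.
Id2: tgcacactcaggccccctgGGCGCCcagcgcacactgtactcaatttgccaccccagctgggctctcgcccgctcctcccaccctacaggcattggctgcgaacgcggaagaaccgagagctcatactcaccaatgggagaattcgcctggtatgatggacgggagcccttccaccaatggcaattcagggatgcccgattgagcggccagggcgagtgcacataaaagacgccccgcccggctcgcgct
Id3: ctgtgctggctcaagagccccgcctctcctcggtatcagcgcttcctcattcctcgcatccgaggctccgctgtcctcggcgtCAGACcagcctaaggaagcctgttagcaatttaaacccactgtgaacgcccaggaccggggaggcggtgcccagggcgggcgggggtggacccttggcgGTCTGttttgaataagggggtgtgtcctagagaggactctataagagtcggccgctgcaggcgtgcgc
Id4: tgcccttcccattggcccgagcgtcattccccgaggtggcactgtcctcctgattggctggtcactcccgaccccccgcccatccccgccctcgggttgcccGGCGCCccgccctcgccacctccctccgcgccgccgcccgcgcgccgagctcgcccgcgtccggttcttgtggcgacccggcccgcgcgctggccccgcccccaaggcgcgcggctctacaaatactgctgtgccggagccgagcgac
Smad6: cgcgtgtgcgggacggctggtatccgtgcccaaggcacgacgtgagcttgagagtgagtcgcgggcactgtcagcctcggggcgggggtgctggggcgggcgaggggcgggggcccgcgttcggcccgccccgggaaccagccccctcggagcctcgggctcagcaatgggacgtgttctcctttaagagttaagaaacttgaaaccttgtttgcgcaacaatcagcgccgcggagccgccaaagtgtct

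GGCGCC, which reads the same on both strands, occurred once in Id2, 231 bases before the start, and once in Id4, 148 bases before it. Over all 32851 RefSeq windows of 300 bases (250 before to 50 after a start), 11.9% held this sequence. Id3 held CAGAC 2 times, 1 on each strand, 167 and 68 bases before the start, and 49.6% of all windows held it on either strand. The Smad6 window held neither sequence. The E-box CANNTG, which E proteins bind and which also reads on both strands, occurred once in the Id2 window, 196 bases before the start. It also occurred once in the Smad6 window, 7 bases after the start and thus outside the bases printed. Of all windows 72.3% held 1 or more. The TATA sequence TATAAA was in 0 of the 4 windows on either strand, while 13.6% of all windows held it. The motifs did not overlap one another, a match is not a measured binding site, and the windows leave out more distant sequence.

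Smad6, the inhibitory Smad that acts mainly on BMP receptors and Smad1, lies on chromosome 9 (probe set 10594418). It read 8.68, 8.92 and 9.24 in CK, 11.00, 10.99 and 10.82 in KO and 10.43, 10.41 and 10.39 in WT. The order differed from that of the Id genes, with KO highest, WT next and CK lowest, and no overlap. Smad6 rose by 0.53 in KO versus WT (95% interval 0.26 to 0.79, limma adjusted p = 0.00348) and fell by 1.47 in CK versus WT (SE 0.12, adjusted p = 1.58e-06). CK was 3.98-fold below KO (log2 difference -1.99, adjusted p = 1.3e-07), the largest of the 7 in that comparison. The CK arrays spread over 0.562 and the WT arrays over 0.037.

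Smad7, which recruits ubiquitin ligases to the receptors of TGF-beta and BMP, lies on chromosome 18 (probe set 10456745). It read 8.83, 8.80 and 9.08 in CK, 9.21, 9.30 and 9.08 in KO and 9.62, 9.67 and 9.53 in WT. Every WT array lay above every mutant array, while the CK and KO arrays met at 9.08. Smad7 fell by 0.71 in CK versus WT (limma adjusted p = 3.78e-05) and fell by 0.41 in KO versus WT (adjusted p = 0.00232). Between CK and KO the log2 difference was -0.29 (95% interval -0.49 to -0.10, adjusted p = 0.012), and without KO replicate 2 it was -0.24 with an adjusted p of 0.0506, so this call was lost without that array.

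Bambi, the decoy for type I receptors of the TGF-beta family, lies on chromosome 18 (probe set 10453604). It read 8.72, 8.72 and 8.56 in CK, 9.35, 9.46 and 9.48 in KO and 8.51, 8.41 and 8.60 in WT. The KO arrays stood above all others, and the CK and WT arrays overlapped. Bambi rose by 0.93 in KO versus WT (SE 0.07, limma adjusted p = 1.2e-06), and CK was 1.70-fold below KO (log2 difference -0.77, adjusted p = 3.68e-06). CK versus WT gave a log2 difference of 0.16 (95% interval 0.01 to 0.32, adjusted p = 0.0627), which was not called here. It was called with arrays centred on their median (0.18, adjusted p = 0.037), after a further quantile normalization (0.20, adjusted p = 0.0224), with array weights (0.20, adjusted p = 0.0318), without CK replicate 3 (0.21, adjusted p = 0.026) and without WT replicate 3 (0.21, adjusted p = 0.0335).

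**Figure D2:**
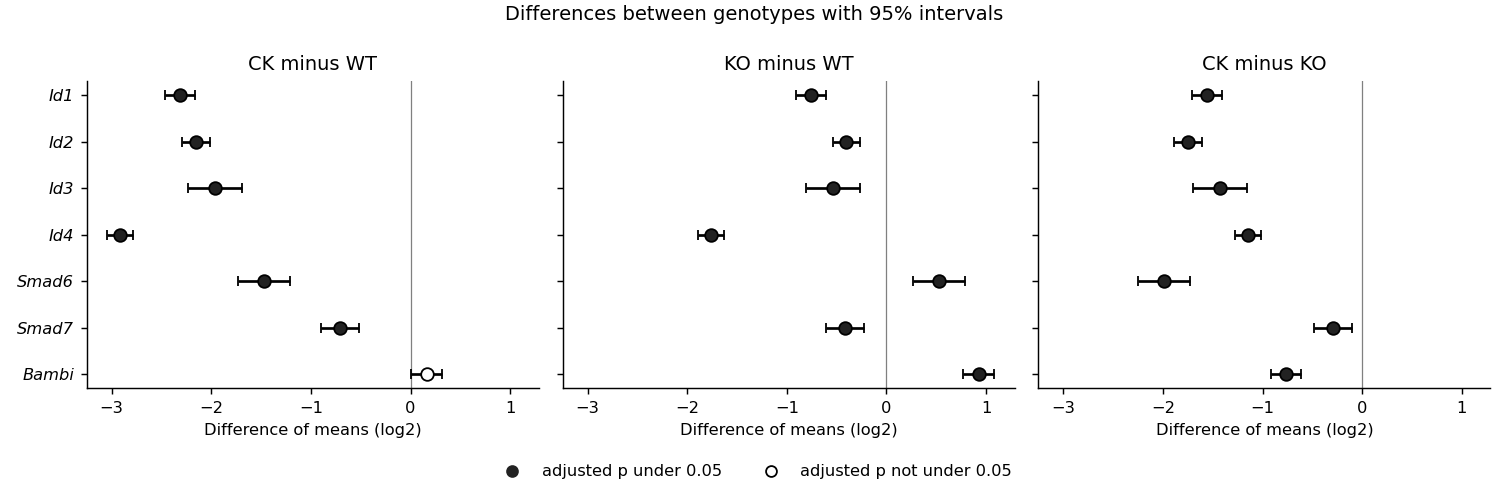
Differences of genotype means (horizontal axis, log2) for the 7 genes in CK minus WT, KO minus WT and CK minus KO, with 95% intervals from limma; filled points had an adjusted p under 0.05. The Id genes lie between -2.91 and -1.96 in CK minus WT and between -1.76 and -0.40 in KO minus WT, and the open point is Bambi in CK minus WT.

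With 3 arrays in each group the exact permutation test, two-sided, cannot go below 0.1, the value it gave for 19 of the 21 differences. The others, Smad7 in CK versus KO and Bambi in CK versus WT, gave 0.2. Arrays of the groups did not overlap for 6 of the 7 genes in CK versus WT, 7 in KO versus WT and 6 in CK versus KO, beside 67.3%, 60.9% and 67.5% of all tested genes.

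The order CK below KO below WT, called in all 3 comparisons, held for 5 of the 7 genes (Id1, Id2, Id3, Id4 and Smad7) and for 5.17% of tested genes. CK below WT and below KO, by at least 2-fold in each, held for Id1, Id2, Id3, Id4 and Smad6 and for 2.32% of tested genes. Every CK array lay below every KO and WT array for the same 5 genes and for 23.6% of tested genes. These patterns were taken from the values of the 7 genes themselves. The shares thus tell how common each pattern was and are no test of it. In CK minus WT, 0.585% of tested genes had a lower difference than Id4, 1.11% than Id1, 1.34% than Id2, 1.71% than Id3 and 3.04% than Smad6, but 10.0% than Smad7. In KO minus WT the Id genes were less far out, with 2.73% of genes below Id4, 7.51% below Id1, 10.8% below Id3 and 14.4% below Id2. At the other end, 3.84% of genes lay above Bambi and 9.30% above Smad6 in KO minus WT.

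**Figure D3:**
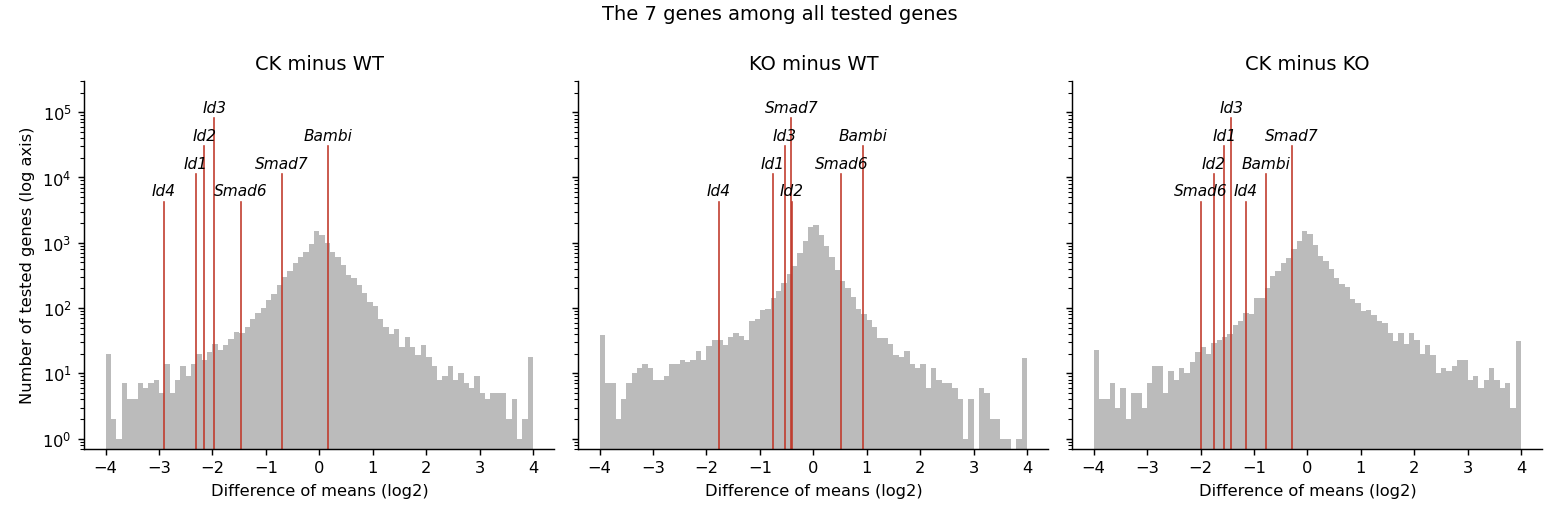
Number of tested genes (vertical log axis) by difference of genotype means (horizontal axis, log2, values beyond 4 in either direction gathered in the end bars), with the 7 genes as red lines. In CK minus WT 4 Id genes and Smad6 lie in the lower tail, with 0.585% to 3.04% of genes below them, while Bambi lies near the centre.

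Profiles over the 9 arrays, each centred on the gene's own mean, were compared by root mean square distance in log2 units. Id1, Id2 and Id3 were 0.170 to 0.189 apart, against a median distance of 0.947 from Id2 to all tested genes with a proper symbol. Id4 was 0.418 from Id1 and 0.560 from Id2, Smad6 was 0.412 from Id2, and Bambi was 1.37 from Id4. Among all tested genes with a proper symbol, the nearest to Id2 was Smad9 (0.0892), the third Smad that BMP receptors phosphorylate, followed by Ssh3 (0.0962) and Ndn (0.0963). Smad9 was also among the 3 nearest to Id3 (0.133), with Cryzl2 (0.118) and Vit (0.138). The nearest to Id1 were Sav1 (0.125), Lrp3 (0.127) and Pparg (0.129), to Id4 Pcdhb6 (0.0996), Rac3 (0.104) and Kctd12 (0.123), and to Smad6 Dbt (0.120), Pccb (0.134) and Lmo7 (0.135). The nearest to Smad7 were Ythdc2 (0.0545), Grin2d (0.0637) and Slc26a11 (0.0686), and to Bambi Afap1l2 (0.0765), Maml2 (0.0917) and Tacc2 (0.0950). The median distance was only 0.361 from Smad7 and 0.447 from Bambi, so distances are not comparable between members. All profiles come from the same 9 arrays and 3 genotypes, so a short distance reflects like differences between the 3 genotype means.

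Among the ligands, Bmp4 was low in CK and Bmp2 was low in KO. Of 13 BMP ligand genes, 5 passed the filter on dim genes. Of these, 2 rose and 2 fell in CK, and 1 rose and 1 fell in KO, versus WT. That is 80% of the 5 in CK and 40% in KO, beside 62.9% and 51.2% of all tested genes, with medians of -0.001 and 0.01. Bmp4, a ligand made by many mesenchymal cells, read 11.26, 11.77 and 11.53 in CK, 13.38, 13.41 and 13.32 in KO and 13.26, 13.31 and 13.34 in WT. It fell by 1.79 in CK versus WT (SE 0.10, limma adjusted p = 1.46e-07), and the KO and WT arrays overlapped (log2 difference 0.07, adjusted p = 0.632). Bmp2, which shares receptors with Bmp4, read 9.34, 9.28 and 9.66 in CK, 6.33, 5.38 and 5.63 in KO and 10.64, 10.61 and 10.67 in WT. It fell by 1.21 in CK and fell by 4.86 in KO versus WT (adjusted p = 0.000333 and 1.15e-08), the KO value lying below the filter value of 7.24 where background compresses differences. Bmp3 rose by 1.77 and Bmp6 by 0.80 in CK, and Gdf7 rose by 1.19 in KO. Among the 8 ligands under the filter, Gdf6 had a difference of 0.85 in CK versus WT (adjusted p = 6.75e-06 in the fit without the filter).

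Of 9 tested receptors and co-receptors, 2 rose and 5 fell in CK versus WT, and 1 rose and 5 fell in KO versus WT. That is 77.8% of the list called in CK and 66.7% in KO, beside 62.9% and 51.2% of all tested genes, with medians of -0.27 and -0.42. The largest falls were those of Eng, the co-receptor endoglin, at -2.85 in CK and -2.69 in KO, and its partner Acvrl1, the type I receptor ALK1, at -1.71 in CK and -1.57 in KO. CK and KO arrays overlapped for both genes. Of the BMP type I and type II receptors, Bmpr1a fell by 0.35 and Bmpr2 fell by 0.27 in CK, and their differences in KO were 0.09 (adjusted p = 0.159) and -0.11, not called. Acvr1, on the same list, went the other way. It fell by 0.42 in KO versus WT (limma adjusted p = 0.000639), and its difference in CK was -0.15, not called. Acvr2a, a type II receptor shared with activin, rose by 1.23 in CK and fell by 0.66 in KO. The type I receptor Bmpr1b did not pass the filter; it averaged 7.07 ± 0.09 in CK, 6.05 ± 0.09 in KO and 6.05 ± 0.08 in WT (SD, n = 3 arrays each), a difference of 1.02 in CK versus WT (adjusted p = 2.02e-06 in the fit without the filter). The co-receptor Rgmb fell by 1.00 in CK and fell by 0.48 in KO, and Rgma rose by 0.72 in CK and by 0.41 in KO.

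Of 12 tested secreted antagonists and modulators, 3 rose and 7 fell in CK, and 3 rose and 8 fell in KO, versus WT. That is 83.3% of the list in CK and 91.7% in KO, beside 62.9% and 51.2% of all tested genes, with medians of -0.23 and -0.45. Grem1, which encodes gremlin, a protein that binds and blocks BMP2 and BMP4, read 12.51, 12.61 and 12.70 in CK, 8.40, 7.95 and 7.85 in KO and 9.31, 9.22 and 9.26 in WT. The CK arrays stood above all others and the KO arrays below. Grem1 rose by 3.34 in CK versus WT (SE 0.12, limma adjusted p = 4.39e-09) and fell by 1.20 in KO (adjusted p = 1.49e-05). Chrdl1, a chordin-like antagonist, rose by 3.29 in CK and by 3.87 in KO. Fst, the activin and BMP antagonist follistatin, fell by 3.64 in CK and fell by 1.94 in KO, whereas Fstl3 rose by 1.92 in CK and fell by 0.45 in KO. Nog, the antagonist noggin, fell by 0.62 in CK and fell by 0.83 in KO. Nbl1, an antagonist of the DAN family, fell by 0.22 in CK and fell by 0.87 in KO, and Crim1, a membrane protein that binds BMPs, fell by 0.55 in CK and rose by 0.62 in KO.

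Among 6 receptor-activated and common Smads, 2 rose and 2 fell in CK, and 1 rose and 2 fell in KO, versus WT. That is 66.7% called in CK and 50% in KO, close to the 62.9% and 51.2% of all tested genes, with medians of 0.01 and -0.03. Smad9 had the largest difference in CK. It read 8.07, 8.23 and 8.34 in CK, 9.85, 9.93 and 9.76 in KO and 10.37, 10.32 and 10.24 in WT, in the same order as the Id genes and with no overlap. Smad9 fell by 2.09 in CK (limma adjusted p = 4.77e-09) and fell by 0.46 in KO (adjusted p = 0.000561) versus WT. Smad1 rose by 0.43 in CK and fell by 0.20 in KO, and Smad5 and Smad4, the shared partner, were not called against WT in either mutant. Of the TGF-beta branch, Smad3 rose by 0.54 in CK and by 1.31 in KO, and Smad2 fell by 0.30 in CK, with a difference of 0.18 in KO, not called.

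Other genes known to respond to BMP in mesenchymal cells went both ways. Of 11 tested, 2 rose and 7 fell in CK versus WT, and 2 rose and 9 fell in KO versus WT, counting Smad9 and Nog again. That is 81.8% of the list in CK and 100% in KO, beside 62.9% and 51.2% of all tested genes, with medians of -0.62 and -0.76. Atoh8, a helix-loop-helix factor, read 8.11, 8.33 and 8.51 in CK, 11.18, 11.20 and 11.02 in KO and 10.46, 10.50 and 10.52 in WT. Like Smad6, it was highest in KO and lowest in CK, with log2 differences of 0.64 in KO and -2.18 in CK versus WT (adjusted p = 0.00019 and 1.35e-08). Dlx5, a homeobox factor of bone formation, fell by 3.55 in CK and fell by 0.76 in KO, in the order of the Id genes. Tbx2, a T-box repressor, fell by 3.24 in CK and fell by 3.26 in KO. Its relative Tbx3 rose by 0.45 in CK and fell by 1.75 in KO. Gata3 fell by 2.08 in KO, and in CK its difference was -0.04, not called. Its relative Gata2 fell by 1.12 in CK and fell by 0.24 in KO. Msx1, a homeobox factor of limb and face, rose by 0.24 in CK and by 1.16 in KO. Sp7, a factor of bone-forming cells, did not pass the filter; its differences were -2.65 in CK and -2.54 in KO (adjusted p = 9.38e-09 and 1.27e-08 in the fit without the filter).

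**Figure D4:**
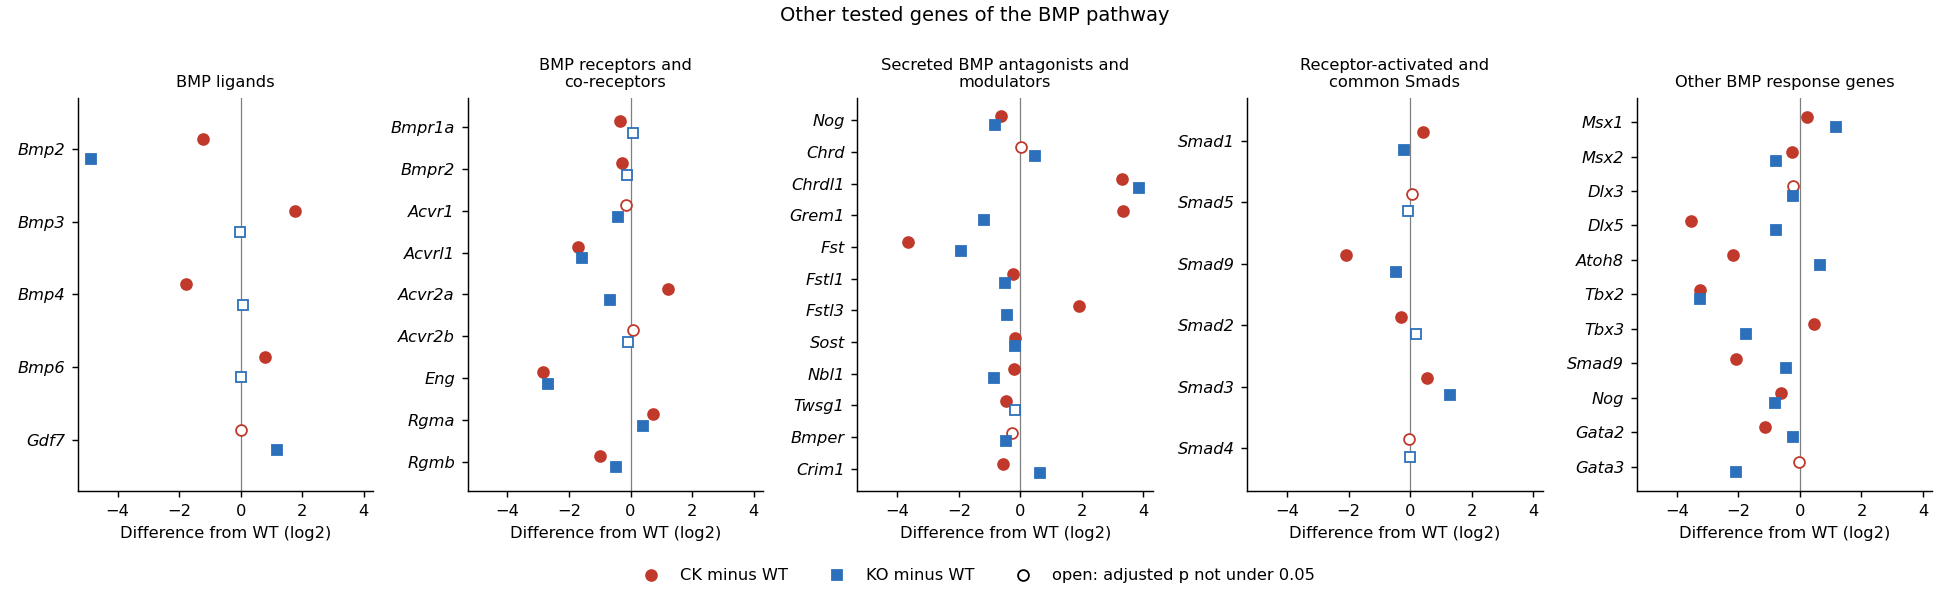
Differences from WT (horizontal axis, log2) of the tested genes in 5 lists of the BMP pathway, red circles for CK and blue squares for KO, filled where the adjusted p was under 0.05. Fst, Dlx5, Tbx2, Eng, Atoh8, Smad9 and Bmp4 lie far to the left in CK, and Grem1 and Chrdl1 lie furthest to the right. In KO, Bmp2, Tbx2, Eng, Gata3 and Fst lie far to the left, and Chrdl1 lies furthest to the right.

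Genes for the E proteins, which Id factors bind, and for other helix-loop-helix factors went both ways. Of the 3 E protein genes, Tcf3 rose by 0.22 in CK, Tcf4 fell by 0.33 in CK and fell by 0.33 in KO, and Tcf12 fell by 0.41 in KO, all versus WT. Their remaining differences, -0.06 for Tcf3 in KO and 0.11 for Tcf12 in CK, were not called. Twist1, a helix-loop-helix factor of mesenchyme, fell by 1.19 in CK and fell by 0.66 in KO, and its relative Twist2 rose by 0.91 in CK and fell by 1.09 in KO. Hey2, a repressor downstream of Notch, fell by 0.94 in CK and rose by 2.79 in KO (limma adjusted p = 5.59e-05 and 1.76e-08), the largest difference of the list in KO versus WT. Hes1, another Notch target, rose by 0.79 in CK and fell by 1.54 in KO. Hand2, a factor of heart and limb, rose by 1.36 in CK, the largest of the list in CK versus WT, with a difference of 0.12 in KO, not called. Over the 10 tested genes of this list 5 rose and 3 fell in CK, and 2 rose and 6 fell in KO, 80% in each, beside 62.9% and 51.2% of all tested genes, with medians of 0.16 and -0.37.

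Markers of other cell types were read beside these results. All 10 fibroblast markers reached the filter value on at least 1 array of every genotype, and the summed linear signal of the list was 67040 to 70811 in CK, 54951 to 55686 in KO and 75081 to 79101 in WT. Of the 10, 9 fell and 0 rose in KO versus WT, and 4 fell and 1 rose in CK versus WT. That is 90% of the list in KO and 50% in CK, beside 51.2% and 62.9% of all tested genes, with medians of -0.71 and -0.14. Thy1, a fibroblast surface marker, read 11.69 in CK, 7.14 in KO and 11.73 in WT. Of 9 tested cartilage markers 9 rose in KO, and 4 fell and 0 rose in CK, versus WT. That is 100% of the list in KO, beside 51.2% of all tested genes, and 44.4% in CK, below the 62.9%. The summed signal of all 10 was 2815 to 2975 in CK, 36191 to 42010 in KO and 14218 to 14804 in WT. The step between CK and WT in this sum lay mostly in Cnmd (mean log2 value 7.30 in CK, 13.85 in KO and 13.33 in WT), and the median difference of the tested markers was -0.06 in CK versus WT and 2.12 in KO versus WT. In CK, Acan, Matn1, Matn3, Hapln1 and Comp were below the filter value on every array. The macrophage list summed to 1055 to 1114 in CK, 1151 to 1331 in KO and 2268 to 2427 in WT, with Adgre1, Csf1r, Ptprc, C1qa and Tyrobp below the filter value on all 9 arrays. Its 2 tested genes went opposite ways, with differences of 0.70 and -2.05 in CK and 1.93 and -2.66 in KO versus WT. The endothelial list summed to 848 to 871 in CK, 841 to 866 in KO and 1159 to 1278 in WT, with Pecam1, Kdr, Emcn and Esam below the filter value on all 9 arrays. Of its 2 tested genes 1 fell, by 2.26 in CK and by 1.97 in KO versus WT, and the other was not called. The neural list summed to 1074 to 1212 in CK, 686 to 752 in KO and 1908 to 2139.5 in WT, with Tubb3, Sox10, Gfap and Nefl below the filter value on all 9 arrays. Of its 2 tested genes 1 fell, by 1.22 in CK and by 2.94 in KO versus WT, and the other was not called (-0.04 and -0.004). The epithelial list summed to 867 to 906 in CK, 929 to 978 in KO and 872 to 929 in WT. The part of these markers in the differences of the 7 genes was not tested, and in bulk RNA fewer cells of a type and less RNA per cell cannot be told apart.

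Within a genotype some arrays were the highest or lowest for several of the 7 genes. CK replicate 3 was the highest CK array for 5 of the 7 genes (Id1, Id3, Id4, Smad6 and Smad7), and KO replicate 1 was the highest KO array for 5 (Id1, Id2, Id3, Id4 and Smad6). WT replicate 3 was the lowest WT array for 5 (Id1, Id3, Id4, Smad6 and Smad7). KO replicate 3 was the lowest KO array for 5 (Id2, Id3, Id4, Smad6 and Smad7), and CK replicate 1 the lowest CK array for 4 (Id2, Id3, Id4 and Smad6). These shifts were at most 0.562 on the log2 scale, seen for Smad6 in CK, which is smaller than each CK versus WT difference of the 4 Id genes and Smad6. The smaller KO versus WT differences hold no CK array and are set beside their own spreads. For Id2 the arrays spread over 0.046 in KO and 0.174 in WT, beside a difference of 0.40 in size. For Id3 the spreads were 0.295 in KO and 0.088 in WT, beside 0.54. For Smad6 they were 0.174 in KO and 0.037 in WT, beside 0.53, and for Smad7 0.221 and 0.132, beside 0.41. The CK versus KO difference of Smad7 was 0.295 in size, beside spreads of 0.285 in CK and 0.221 in KO, and those arrays overlapped.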

How the data were processed

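Per the submitters' processing notes, the authors used RMA and affy to make the deposited log2 expression values, which cover 34760 probe sets; RMA gives arrays nearly the same distribution and no detection calls. Versions and filters are not given in the sources used here. No deposited value held a decimal mark: strings starting with 1 were read as 10 or more and all others as below 10, which gave 4.28 to 14.4. In 0 of the 21 pairs of a gene and a genotype among the 7 genes did arrays lie on both sides of 10. That the scale is log2 follows from the use of RMA and from no header.

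Probe sets with 1 symbol in the platform annotation (21640) were named through a RefSeq table of GRCm38.p6, the brightest was kept for each gene, and the genes whose mean reached the 40th percentile, 7.24, were tested. The test was limma 3.58.1 (R 4.3.3) on all 9 arrays, with a coefficient for each genotype (6 residual and 4.1 prior degrees of freedom) and Benjamini-Hochberg adjustment. Levels are log2 values per array, and differences are of genotype means. The number of arrays limits the precision. The 7 genes, the gene lists and the naming rule were chosen with earlier results of these data known: 98 genes in 8 pathway lists, of which 95 had a named probe set and 74 were tested, and 50 genes in 6 marker lists, of which 49 had one. List genes under the filter have no adjusted p in this fit; where one is named, its adjusted p comes from the fit without the filter. The text names the 7 genes, Cdkn1b, up to 4 called genes of each pathway list with the smallest p in each comparison, list genes beside those they act with, and the 3 nearest profiles of each member. Bmpr1b, Gdf6, Sp7 and the markers Thy1 and Cnmd were named after their values were seen. Alternatives were filters on dim genes, probe set handling, normalization, variance models, thresholds, the replicate number as a block, and leaving out each array. Promoter windows came from RefSeq.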

Additional observations from a re-analysis of the deposited data

How the results depend on the processing

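Of 459 recomputed results of single members, 443 kept their direction and their side of the threshold, 11 were no longer called, 5 were newly called and 0 changed sign. The 5 are those of Bambi in CK versus WT given above. The difference itself could not change under the filters, the probe set handling (1 probe set per member), trended variances, the replicate block or the thresholds. Nor could it change with only the 6 arrays of a comparison, or without an array of the third genotype. A change of sign was possible only with centring, quantile normalization, array weights or leaving out an array of the compared genotypes. A threshold of 2-fold, chosen after seeing the data, accounts for 9 of the 11 by its construction; it left 1 of the 7 genes called in KO versus WT, 5 in CK versus WT and 5 in CK versus KO, and 1049, 1293 and 1489 of all genes. The others are Smad7 in CK versus KO without KO replicate 2 and at an adjusted p under 0.01. Leaving out each array gave 7 called members in KO versus WT, 6 to 7 in CK versus WT and 6 to 7 in CK versus KO. The filter at the 60th percentile left 6 members tested, without Bambi. With the replicate block, 7 members and 5979 genes were called in KO versus WT, 6 and 7377 in CK versus WT, and 7 and 7291 in CK versus KO. Same-numbered arrays correlated over 0.1 in 2 of 9 pairs, each between KO and WT (range over the 9 pairs -0.303 to 0.361). Of 9 arrays, 2 correlated best with their own number. With 3 arrays per genotype, such correlations cannot settle whether the numbers pair the arrays.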

Other observations

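Genes that respond to TGF-beta, the related pathway that Smad7 also restrains, were read from a separate list. Of 12 tested, 2 rose and 4 fell in CK, and 3 rose and 7 fell in KO, versus WT. That is 50% called in CK, below the 62.9% of all tested genes, and 83.3% in KO, above the 51.2%, with medians of 0.02 and -0.42. Tgfbi, a secreted matrix protein named for its induction by TGF-beta, fell by 3.37 in KO, and its difference in CK was -0.04, not called. Ccn2, a matricellular growth factor, fell by 1.59 in CK and rose by 0.71 in KO. Pmepa1 and Skil, feedback inhibitors of the pathway, fell by 1.18 each in KO and were not called in CK (0.08 and 0.14). Ltbp2, a matrix protein of the latent TGF-beta binding family, fell by 2.57 in CK and fell by 3.09 in KO. Snai1, a repressor of epithelial genes, fell by 0.99 in CK and fell by 0.58 in KO, the matrix protein gene Fn1 rose by 0.49 in CK and by 0.29 in KO, and the smooth muscle actin gene Acta2 fell by 0.13 in CK and rose by 0.31 in KO.

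Of 14 tested Smad cofactors and ubiquitin ligases, 4 rose and 5 fell in CK, and 4 rose and 7 fell in KO, versus WT. That is 64.3% called in CK, close to the 62.9% of all tested genes, and 78.6% in KO, beside 51.2%, with medians of 0.03 and -0.19. Smurf1 and Smurf2, the ubiquitin ligases that inhibitory Smads bring to the receptors, moved in opposite directions: Smurf1 rose by 0.52 in CK and fell by 0.38 in KO, while Smurf2 fell by 0.78 in CK and rose by 0.76 in KO. Tob1, an antiproliferative protein that can repress Smad targets, fell by 0.68 in CK and rose by 0.27 in KO. Ctdsp1, a phosphatase that acts on Smads, fell by 1.00 in CK, and its difference in KO was -0.09, not called. Zeb2, a repressor that binds Smads, fell by 1.02 in KO and was not called in CK, Tgif1, a corepressor of Smads, rose by 0.51 in CK and fell by 0.37 in KO, and Zfp423, a zinc finger cofactor of BMP Smads, fell by 0.54 in CK and fell by 0.32 in KO.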
